A study of Homo sapiens with 20 samples.

Results

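Aminoacyl-tRNA synthetases are the enzymes that join each amino acid to its tRNA, and the genes described here are the 20 that encode the cytosolic enzymes or their subunits and the 16 that encode mitochondrial enzymes. These 36 genes were taken from a given list of symbols, matched to Ensembl identifiers. The list is defined by gene function, but it was chosen with earlier results of these data known. They are 36 of 78932 gene identifiers in the count table, and all 36 were among the 20957 genes with enough counts to be tested. The data are poly(A) RNA-seq counts from OPM2, an established human multiple myeloma cell line, so every result comes from 1 line. Cells received the histone deacetylase inhibitors panobinostat at 10 nM, romidepsin at 10 nM or ricolinostat at 100 nM for 2, 5 or 20 h, or the DMSO vehicle, for which no harvest time is given. Each of the 10 groups holds 2 libraries described as independent biological replicates, 20 in all. 1 label field gives ricolinostat as 10 nM, whereas the titles and protocol give 100 nM. Romidepsin is a cyclic peptide-like compound, whereas the other 2 inhibitors carry a hydroxamic acid group. Panobinostat acts on many histone deacetylases, romidepsin mainly on class I enzymes, and ricolinostat was developed as an inhibitor of HDAC6.

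Cytosolic synthetases charge tRNA for translation in the cytosol, and several of them sit in a multisynthetase complex held together by the scaffold proteins AIMP1, AIMP2 and EEF1E1. Separate nuclear genes, most with the suffix 2, encode the enzymes that charge tRNA in mitochondria, while GARS1 and KARS1 serve both places. Many cytosolic synthetase genes are targets of ATF4, the transcription factor made when eIF2α kinases sense amino acid shortage or unfolded protein. Plasma and myeloma cells secrete immunoglobulin and depend on high protein synthesis.

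Library totals ran between 17264640 and 29088868 counts. All 9 plasma and myeloma cell markers examined had counts in every group. Their summed CPM (read counts relative to the library total, scaled by the TMM method of edgeR) was 834 to 856 at 20 h of panobinostat, 1680 to 1720 at 20 h of romidepsin and 5520 to 5550 at 20 h of ricolinostat, against 7130 to 7230 with DMSO. Summed CPM of 7 stromal and epithelial markers was 35.7 to 37.4 at 20 h of panobinostat and 26.8 to 29.2 at 20 h of romidepsin, mostly COL1A1, against 0 to 0.0745 with DMSO, where 6 of the 7 were at 0. The myeloid sum was 6.97 to 7.13 CPM at 20 h of panobinostat and 2.19 to 2.57 at 20 h of romidepsin. It was 0.342 to 0.453 at 20 h of ricolinostat and 0.169 to 0.335 with DMSO. The sums of the T and NK and the erythroid lists were at or below 1.82 CPM in the groups at 20 h and with DMSO. In bulk RNA, fewer cells of a type and less RNA per cell cannot be told apart, and the part of these marker changes in the results below was not tested.

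The cytosolic genes together took a smaller share of all counts at 20 h of each inhibitor, in every library, whereas the mitochondrial share was largest at 20 h of panobinostat. They took 0.382% ± 0.00255 of all counts at 20 h of panobinostat, 0.328% ± 0.00163 at 20 h of romidepsin and 0.463% ± 0.00467 at 20 h of ricolinostat, against 0.575% ± 0.00566 with DMSO (mean ± SD, n = 2 each). The mitochondrial share was 0.108% ± 0.000354 at 20 h of panobinostat, 0.0819% ± 0.0011 with romidepsin and 0.0768% ± 0.000516 with ricolinostat, against 0.0786% ± 0.00082 with DMSO. The ratio of the cytosolic to the mitochondrial sum was therefore 3.55 ± 0.0346 after panobinostat, 4 ± 0.0339 after romidepsin and 6.03 ± 0.0212 after ricolinostat, against 7.31 ± 0.00495 with DMSO. At 2 and 5 h the ratio was 6.53 and 5.95 with panobinostat, 6.95 and 6.80 with romidepsin and 6.85 and 6.69 with ricolinostat. The shares are of raw counts, without TMM scaling. As TMM-scaled CPM, the mitochondrial sum was 930 and 941 at 20 h of panobinostat and 752 and 736 at 20 h of romidepsin. It was 772 and 760 at 20 h of ricolinostat, against 836 and 845 with DMSO. The romidepsin libraries thus lay slightly above DMSO by share and below it by TMM-scaled CPM. A few abundant genes weigh most in these sums, so the single genes are given next.

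**Figure D1:**
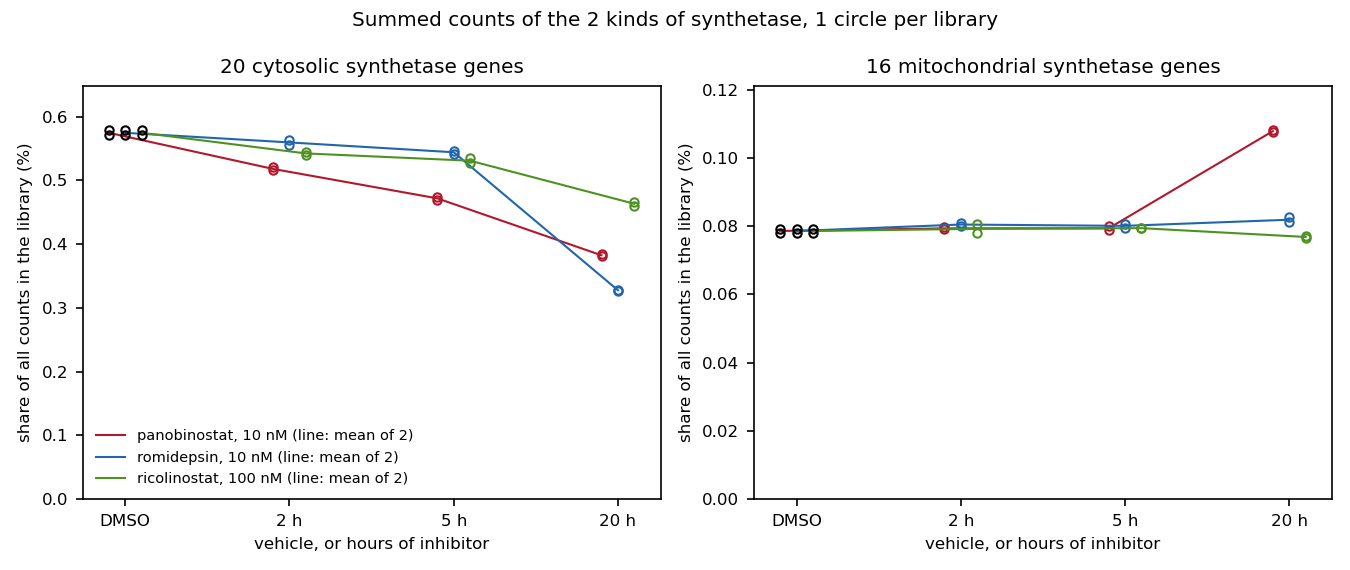
The left panel plots the summed counts of the 20 cytosolic synthetase genes and the right panel those of the 16 mitochondrial genes, as a percentage of all counts in a library. Each circle is a library, black for DMSO, and lines join group means. Counts are raw, without TMM scaling. The cytosolic share was 0.382% after 20 h of panobinostat and 0.328% after 20 h of romidepsin, against 0.575% with DMSO, and the mitochondrial share was 0.108% after 20 h of panobinostat, against 0.0786% with DMSO.

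Per kilobase of exon, the genes differed widely in level. In DMSO cells AARS1, the alanine enzyme, was highest at a mean of 213 CPM per kb, followed by EPRS1, the joint glutamate and proline enzyme, at 119 and GARS1, the glycine enzyme, at 111. IARS2 at 36.2 and TARS2 at 33.1 CPM per kb were the highest mitochondrial genes. SARS2 at 1.91, WARS2 at 1.46 and VARS2 at 0.172 CPM per kb were the lowest of the 36. After 20 h of panobinostat TARS2 stood at 68.8 and IARS2 at 56.3 CPM per kb, above GARS1 at 35.7 and TARS1 at 20.5.

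Counts of synthetase genes called at an adjusted p under 0.05 grew with time for the 3 inhibitors. With panobinostat, 4 cytosolic genes rose and 8 fell at 2 h, 4 rose and 15 fell at 5 h, and 3 rose and 14 fell at 20 h. Over all genes tested, 20.8% were called higher and 18.1% lower at 2 h, 30.7% and 25.9% at 5 h, and 40.8% and 32.3% at 20 h. Of the mitochondrial genes, 3 rose and 5 fell at 2 h, 3 rose and 8 fell at 5 h, and 5 rose and 9 fell at 20 h. The calls among cytosolic genes therefore leaned to lower, whereas calls over all genes leaned slightly to higher. The 4 higher cytosolic genes became 2 without panobinostat 2 h replicate 2, and at 5 h they became 2 without DMSO replicate 2. The 3 at 20 h became 5 with DESeq2-type size factors, the DESeq2 test or library size alone. Scaling by library size alone gave, for the 36 genes, 10 higher and 19 lower at 5 h and 12 higher and 21 lower at 20 h.

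Romidepsin left nearly all synthetase genes uncalled at 2 h and lowered most of them by 20 h. At 2 h the only calls among the 36 were 4 cytosolic genes, all lower, with 3.55% of all genes called higher and 4.62% lower. At an unadjusted p under 0.05 edgeR had 10 cytosolic genes lower and 1 mitochondrial gene in each direction, and the DESeq2 test called 8 cytosolic genes lower. That count of 4 was 1 without DMSO replicate 2 or romidepsin 2 h replicate 1, 2 without DMSO replicate 1, and 1 higher with 1 lower under library size alone. At 5 h, 16 cytosolic and 2 mitochondrial genes fell and 0 rose by edgeR, with 13.0% of all genes called higher and 16.5% lower, and 3 rose and 10 fell under library size alone. The count of genes higher at 5 h was also 0 at an unadjusted p under 0.05 and by the DESeq2 test. At 20 h, 1 cytosolic gene rose and 15 fell, and 3 mitochondrial genes rose and 11 fell, against 38.6% of all genes called higher and 29.9% lower. Library size alone gave 8 higher and 24 lower there.

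With ricolinostat nearly all cytosolic genes were called lower at 20 h under TMM scaling, after fewer calls at 2 and 5 h. At 2 h, 4 cytosolic genes rose and 5 fell, and 3 mitochondrial genes rose and 4 fell, against 16.9% of all genes higher and 14.5% lower. The 4 higher cytosolic calls were all lost without ricolinostat 2 h replicate 1 (with 8 lower), became 1 without replicate 2 (with 9 lower) and became 2 without DMSO replicate 2 (with 3 lower). The 4 lower mitochondrial calls became 2 without ricolinostat 2 h replicate 1 and were all lost without DMSO replicate 1, where the total of 16 was 10. DESeq2-type size factors in edgeR gave 6 higher and 13 lower and the DESeq2 test 6 higher and 12 lower. At 5 h, 4 cytosolic genes rose and 10 fell, and 3 mitochondrial genes rose and 6 fell, against 18.8% of all genes higher and 15.3% lower. Without ricolinostat 5 h replicate 1 it was 1 higher and 13 lower for cytosolic genes and 1 higher for mitochondrial genes. At 20 h, 19 of the 20 cytosolic genes fell and 0 rose (0 also at an unadjusted p under 0.05 and by the DESeq2 test), and 1 mitochondrial gene (TARS2, lost with any of the 4 libraries left out) rose and 6 fell, against 14.7% of all genes higher and 16.4% lower. The changes were small, with log2 fold changes between -0.61 and 0.43. Of the 36 genes 0 changed 2-fold, while 0.582% of all genes were at least 2-fold lower. Library size alone gave 14 cytosolic genes lower and 0 higher at 20 h, and 4 mitochondrial genes lower and 1 higher. The 9 comparisons with DMSO share the same 2 DMSO libraries, and as no harvest time is given for them, time in culture and time with inhibitor cannot be told apart in these contrasts.

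The median log2 fold change of the cytosolic genes at 20 h was -0.70 with panobinostat, -1.03 with romidepsin and -0.41 with ricolinostat. For the mitochondrial genes it was -0.29, -0.63 and -0.17 in the same order, and over all genes tested 0.25, 0.22 and 0.03. Scaling by library size alone put the median over all genes 0.30 higher for panobinostat, 0.24 higher for romidepsin and 0.10 higher for ricolinostat. 6 cytosolic and 4 mitochondrial genes were at least 2-fold lower with panobinostat at 20 h, and 11 cytosolic and 4 mitochondrial genes with romidepsin. Over all genes, 17.8% were at least 2-fold lower with panobinostat and 13.5% with romidepsin. TARS2 with panobinostat was the 1 gene called at least 2-fold higher in the 3 contrasts at 20 h, against 29.5% of all genes with panobinostat, 26.9% with romidepsin and 4.7% with ricolinostat.

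**Figure D2:**
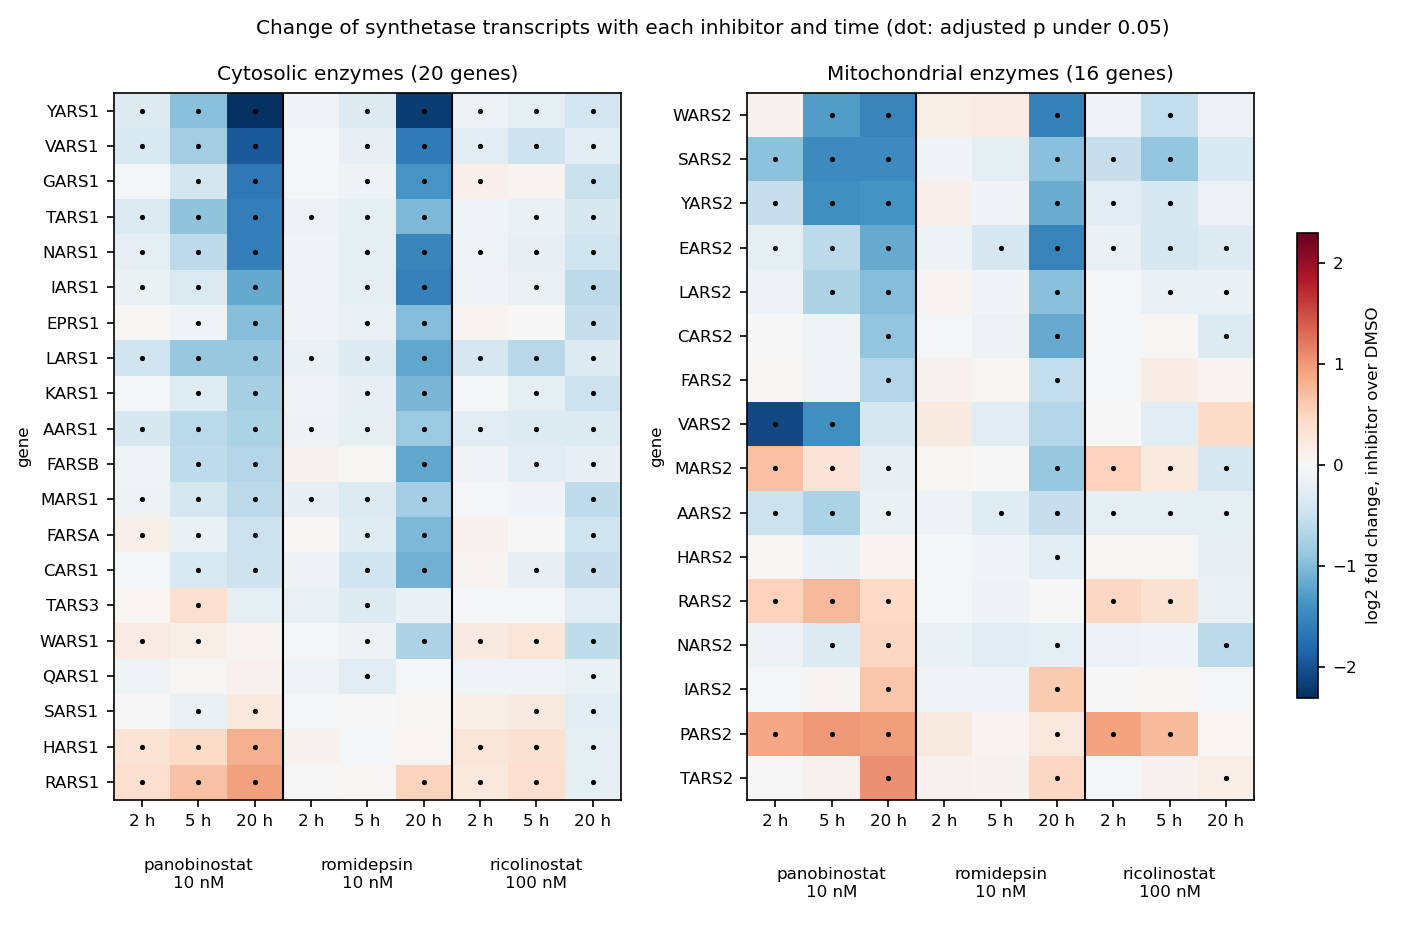
Colour gives the log2 fold change of each inhibitor group over DMSO, blue for lower and red for higher, for the 20 cytosolic genes (left) and 16 mitochondrial genes (right), ordered by the change at 20 h of panobinostat. Dots mark an adjusted p under 0.05. YARS1 is the darkest blue row of the left panel, and PARS2, RARS2 and MARS2 are red with a dot at 2 h with panobinostat and ricolinostat and have no dot at 2 h with romidepsin.

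The 5 cytosolic genes that moved most at 20 h all fell with each of the 3 inhibitors at that time. YARS1 (ENSG00000134684, chromosome 1, 32775237 to 32818153, minus strand, GRCh38) encodes the tyrosine enzyme. Its CPM was 286 and 286 at 2 h, 182 and 178 at 5 h and 74.9 and 69.7 at 20 h with panobinostat, and 328 and 332 at 2 h, 286 and 286 at 5 h and 76.05 and 78.8 at 20 h with romidepsin. Ricolinostat gave YARS1 values of 321 and 324 at 2 h, 307 and 291 at 5 h and 266 and 251 at 20 h, against 348 and 354 with DMSO. Every inhibitor library lay below both DMSO libraries, and the 20 h libraries of panobinostat and romidepsin were the lowest. The log2 fold change at 20 h was -2.28 ± 0.045 (adjusted p = 1.93e-69) with panobinostat, -2.18 ± 0.045 (adjusted p = 3.61e-67) with romidepsin and -0.44 ± 0.042 (adjusted p = 4.71e-16) with ricolinostat (± SE, edgeR).

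VARS1, the valine enzyme (ENSG00000204394, chromosome 6, 31777518 to 31795953, minus strand), had CPM values of 435 and 429 at 2 h, 320.5 and 309.5 at 5 h and 142 and 144 at 20 h with panobinostat. Romidepsin gave VARS1 values of 523 and 546 at 2 h, 488 and 470.2 at 5 h and 175 and 183 at 20 h, and ricolinostat gave 469.5 and 460.4 at 2 h, 399 and 389 at 5 h and 466 and 458 at 20 h, against 551 and 545 with DMSO. With ricolinostat VARS1 was lowest at 5 h, and the 20 h libraries lay above the 5 h libraries without reaching DMSO. VARS1 had a log2 fold change of -1.93 ± 0.041 (adjusted p = 2.66e-67) at 20 h of panobinostat, -1.61 ± 0.040 (adjusted p = 2.21e-60) at 20 h of romidepsin and -0.48 ± 0.038 (adjusted p = 8.57e-20) at 5 h of ricolinostat.

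GARS1, the glycine enzyme for both cytosol and mitochondria (ENSG00000106105, chromosome 7, 30594681 to 30634033, plus strand), had CPM values of 449.8 and 441 at 2 h, 348 and 341 at 5 h and 147 and 149 at 20 h with panobinostat. Romidepsin gave GARS1 values of 436 and 456 at 2 h, 428 and 421 at 5 h and 179.5 and 179 at 20 h, and ricolinostat gave 486 and 512 at 2 h, 499 and 471 at 5 h and 327 and 319 at 20 h, against 462 and 461 with DMSO. The 2 h libraries of panobinostat lay just below DMSO and the 20 h libraries far below. GARS1 had log2 fold changes at 20 h of -1.64 ± 0.041 (adjusted p = 1.13e-60) with panobinostat, -1.37 ± 0.040 (adjusted p = 1e-53) with romidepsin and -0.52 ± 0.039 (adjusted p = 4.73e-21) with ricolinostat.

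TARS1, the threonine enzyme (ENSG00000113407, chromosome 5, 33440696 to 33469539, plus strand), had CPM values of 279.6 and 285 at 2 h, 186 and 187 at 5 h and 112 and 122 at 20 h with panobinostat. Romidepsin gave TARS1 values of 318 and 329.7 at 2 h, 308 and 304 at 5 h and 175 and 172 at 20 h, and ricolinostat gave 332 and 331 at 2 h, 331 and 308 at 5 h and 274 and 274 at 20 h, against 350.0 and 358 with DMSO. At 5 h the panobinostat libraries stood apart from all others of that time. NARS1, the asparagine enzyme, had CPM values of 307 and 318 at 2 h, 238 and 239 at 5 h and 121 and 121 at 20 h with panobinostat. Romidepsin gave NARS1 values of 336 and 337 at 2 h, 316 and 298 at 5 h and 129 and 126 at 20 h, and ricolinostat gave 332 and 340.2 at 2 h, 329 and 306 at 5 h and 266 and 260.3 at 20 h, against 357 and 364 with DMSO. At 20 h the log2 fold changes with panobinostat and romidepsin were -1.59 and -1.03 for TARS1 and -1.57 and -1.50 for NARS1, all with an adjusted p of 7.79e-42 or less.

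A few cytosolic genes did not share this fall. RARS1, the arginine enzyme of the multisynthetase complex, had CPM values of 77.8 and 84.4 at 2 h, 98.3 and 98.3 at 5 h and 118 and 121 at 20 h with panobinostat, and 60.8 and 62.97 at 2 h, 65 and 61.8 at 5 h and 92.98 and 83.6 at 20 h with romidepsin. Ricolinostat gave RARS1 values of 74.5 and 72.5 at 2 h, 85.9 and 75.5 at 5 h and 53.4 and 54.5 at 20 h, against 64.03 and 59.97 with DMSO. It rose with panobinostat at every time (log2 fold change at 20 h 0.95 ± 0.059, adjusted p = 1.4e-28) and with romidepsin at 20 h (0.51 ± 0.060, adjusted p = 7.61e-13). With ricolinostat it was called higher at 2 and 5 h and lower at 20 h (-0.20 ± 0.063, adjusted p = 0.00809), the last with an adjusted p of 0.131 without DMSO replicate 1 and 0.0704 without ricolinostat 20 h replicate 1. The 2 h call had an adjusted p of 0.0841 without DMSO replicate 2, 0.213 without ricolinostat 2 h replicate 1 and 0.0608 without replicate 2, and the 5 h call 0.0716 without ricolinostat 5 h replicate 1.

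HARS1, the histidine enzyme, had CPM values of 86.2 and 84.7 at 2 h, 93.5 and 94.4 at 5 h and 123 and 121 at 20 h with panobinostat, and 73.1 and 72.05 at 2 h, 68.04 and 67.9 at 5 h and 73.3 and 68.7 at 20 h with romidepsin. Ricolinostat gave HARS1 values of 85.5 and 81.8 at 2 h, 91.7 and 83.6 at 5 h and 61.8 and 56.9 at 20 h, against 68.4 and 69.5 with DMSO. It rose with panobinostat at 20 h by a log2 fold change of 0.82 ± 0.056 (adjusted p = 7.17e-26), and its value with romidepsin was 0.04 ± 0.058 (adjusted p = 0.549). QARS1, the glutamine enzyme, passed the test at 20 h neither with panobinostat (0.09 ± 0.044, adjusted p = 0.0607) nor with romidepsin (-0.04 ± 0.045, adjusted p = 0.407, or 0.19 with an adjusted p of 2.47e-05 under library size alone).

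13 cytosolic synthetases are listed here as ATF4 targets and 7 are not. Over all genes at 20 h, 32.3% were lower with panobinostat, 29.9% with romidepsin and 16.4% with ricolinostat. At 20 h, 11 of the 13 fell and 1 rose with panobinostat, 12 fell with romidepsin and 13 fell with ricolinostat, with medians of -0.99, -1.10 and -0.45. Of the other 7, 3 fell and 2 rose with panobinostat, 3 fell and 1 rose with romidepsin and 6 fell with ricolinostat, with medians of -0.20, -0.16 and -0.22. The 7 enzymes of the multisynthetase complex had 5 lower and 1 higher with panobinostat, 5 lower and 1 higher with romidepsin and 7 lower with ricolinostat. Among cytosolic enzymes outside it, 9 of 13 fell and 2 rose with panobinostat, 10 fell with romidepsin and 12 fell with ricolinostat.

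The 5 mitochondrial genes that moved most at 20 h were lower with panobinostat and romidepsin. WARS2, the mitochondrial tryptophan enzyme, had CPM values of 6.08 and 5.83 at 2 h, 2.68 and 1.98 at 5 h and 2.27 and 1.65 at 20 h with panobinostat, and 6.18 and 6.08 at 2 h, 6.04 and 6.82 at 5 h and 1.86 and 1.97 at 20 h with romidepsin. Ricolinostat gave WARS2 values of 5.11 and 5.44 at 2 h, 3.77 and 3.84 at 5 h and 4.71 and 5.49 at 20 h, against 5.17 and 6.04 with DMSO. It was already low at 5 h of panobinostat, while the romidepsin libraries of 2 and 5 h lay above the lower DMSO library, and the level is low throughout. Its log2 fold change at 20 h was -1.53 ± 0.22 (adjusted p = 2.21e-09) with panobinostat and -1.55 ± 0.23 (adjusted p = 3.55e-09) with romidepsin.

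EARS2, the mitochondrial glutamate enzyme, had CPM values of 74.96 and 79.7 at 2 h, 57.1 and 60.3 at 5 h and 38.2 and 41.9 at 20 h with panobinostat, and 78.8 and 85.8 at 2 h, 68.8 and 67.6 at 5 h and 29.4 and 32.6 at 20 h with romidepsin. Ricolinostat gave EARS2 values of 77.4 and 81.5 at 2 h, 65.5 and 69.5 at 5 h and 75.2 and 71.4 at 20 h, against 91.9 and 87.4 with DMSO. No inhibitor library reached the lower DMSO value, and the romidepsin libraries at 20 h were the lowest. EARS2 had log2 fold changes of -1.16 ± 0.063 (adjusted p = 1.26e-32) with panobinostat and -1.53 ± 0.066 (adjusted p = 2.82e-40) with romidepsin at 20 h.

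YARS2, the mitochondrial tyrosine enzyme, had CPM values of 20.4 and 19.1 at 2 h, 10.6 and 10.7 at 5 h and 10.96 and 11.03 at 20 h with panobinostat, and 30.02 and 31.6 at 2 h, 28.2 and 25.2 at 5 h and 13.5 and 12.5 at 20 h with romidepsin. Ricolinostat gave YARS2 values of 22.9 and 24.9 at 2 h, 23.7 and 20.5 at 5 h and 26.3 and 25.8 at 20 h, against 28.3 and 28.7 with DMSO. With panobinostat YARS2 had a log2 fold change of -1.42 ± 0.11 (adjusted p = 1.31e-22) at 5 h and -1.37 at 20 h, whereas with romidepsin it passed the test at 20 h alone (-1.13 ± 0.10, adjusted p = 1.23e-18).

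SARS2, the mitochondrial serine enzyme, had CPM values of 3.40 and 3.07 at 2 h, 2.56 and 1.98 at 5 h and 1.80 and 2.59 at 20 h with panobinostat, and 5.79 and 5.95 at 2 h, 5.33 and 5.29 at 5 h and 2.45 and 3.86 at 20 h with romidepsin. Ricolinostat gave SARS2 values of 4.07 and 4.45 at 2 h, 3 and 3.70 at 5 h and 4.32 and 5.35 at 20 h, against 6.73 and 5.63 with DMSO. All panobinostat and ricolinostat libraries lay below both DMSO libraries. In the GENCODE 29 annotation 1492 exonic bases of SARS2 overlap another gene on the same strand, so its few reads may not all be its own.

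CARS2, the mitochondrial cysteine enzyme, had CPM values of 70.7 and 72.3 at 2 h, 70.01 and 64.1 at 5 h and 40.9 and 36.1 at 20 h with panobinostat, and 72.5 and 66.3 at 2 h, 64.02 and 66.4 at 5 h and 33.3 and 30.8 at 20 h with romidepsin. Ricolinostat gave CARS2 values of 71.2 and 70.3 at 2 h, 71.03 and 75.1 at 5 h and 54.7 and 60.6 at 20 h, against 69.8 and 73.5 with DMSO. It moved late, with log2 fold changes of -0.90 ± 0.066 (adjusted p = 9.39e-24) at 20 h of panobinostat and -1.16 ± 0.068 (adjusted p = 4.16e-30) at 20 h of romidepsin. VARS2, the mitochondrial valine enzyme, was at 2.05 CPM or less in all 20 libraries and shares 1858 exonic bases with a gene on the same strand, so its calls at 2 and 5 h of panobinostat rest on few reads.

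**Figure D3:**
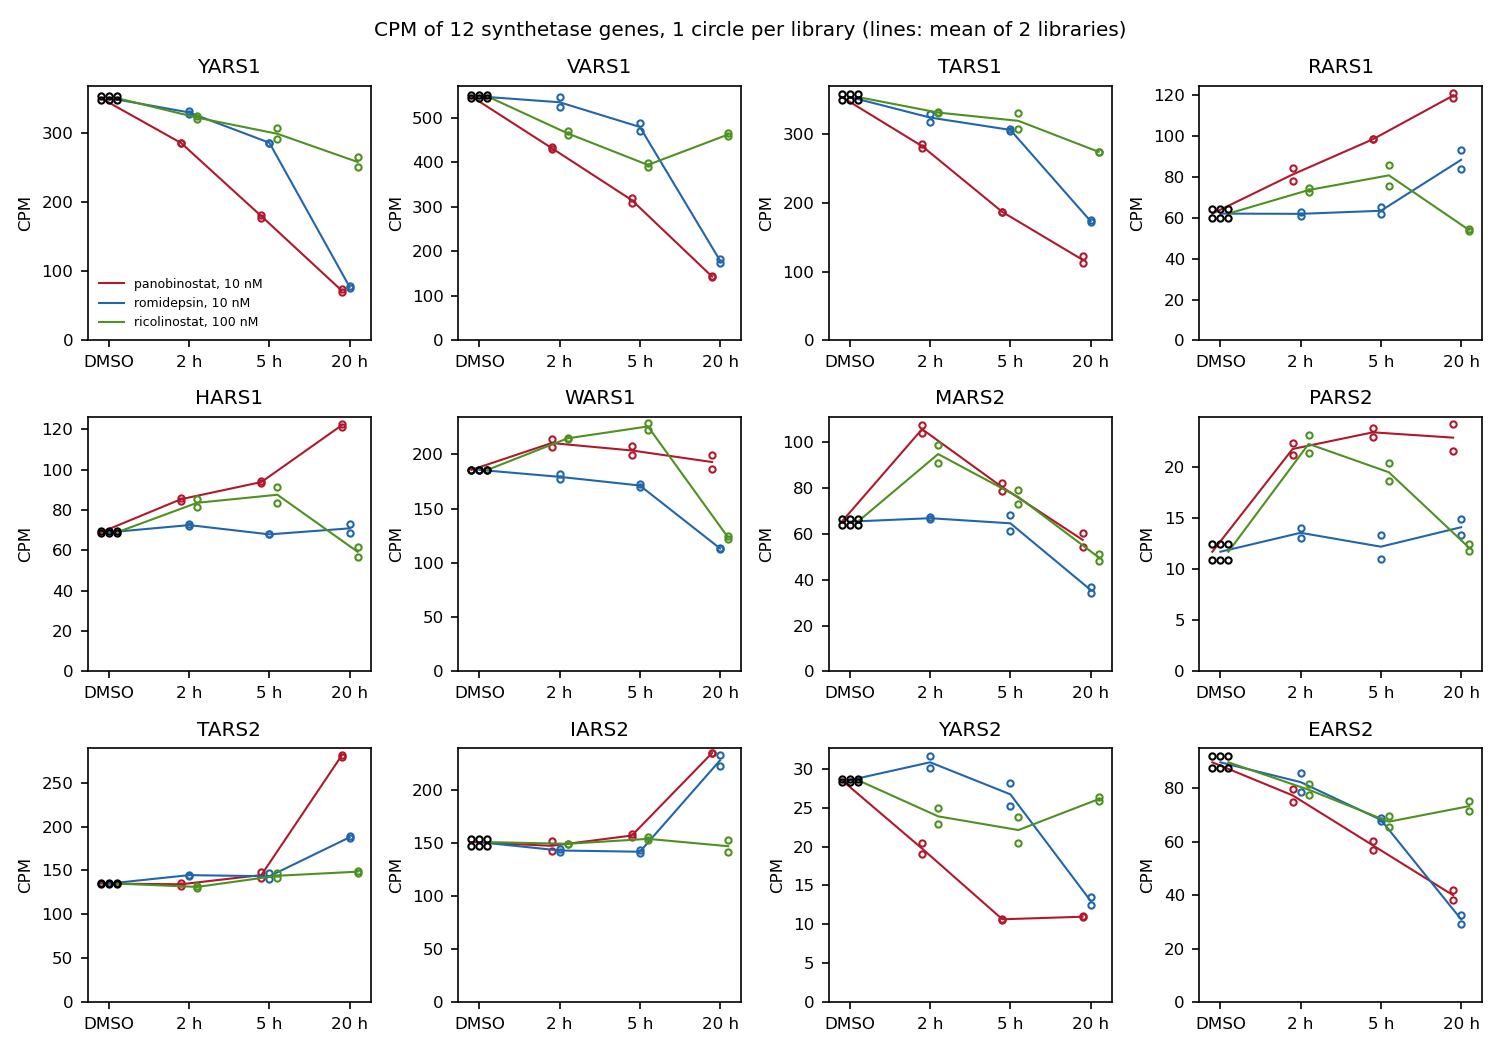
CPM of 12 synthetase genes by time, with a circle for each library (black for DMSO) and lines through group means, and vertical axes that start at 0. YARS1, VARS1, TARS1, YARS2 and EARS2 are below DMSO at 20 h of panobinostat and romidepsin, RARS1, HARS1, PARS2, TARS2 and IARS2 are above DMSO at 20 h of panobinostat, and MARS2 peaks at 2 h of panobinostat and ricolinostat.

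Among mitochondrial genes that rose, a group moved within 2 h of panobinostat and ricolinostat. PARS2, the mitochondrial proline enzyme (ENSG00000162396, chromosome 1, 54756898 to 54764514, minus strand), had CPM values of 21.2 and 22.4 at 2 h, 23.8 and 22.98 at 5 h and 21.5 and 24.2 at 20 h with panobinostat, and 13.1 and 14.1 at 2 h, 13.4 and 11.04 at 5 h and 14.9 and 13.3 at 20 h with romidepsin. Ricolinostat gave PARS2 values of 21.4 and 23.1 at 2 h, 18.6 and 20.4 at 5 h and 12.4 and 11.7 at 20 h, against 10.9 and 12.5 with DMSO. All panobinostat libraries and the early ricolinostat libraries lay above every DMSO and romidepsin library. The log2 fold change at 2 h was 0.89 ± 0.11 (adjusted p = 3.55e-11) with panobinostat and 0.92 ± 0.11 (adjusted p = 1.38e-11) with ricolinostat, and with romidepsin it was 0.21 ± 0.12 (adjusted p = 0.334).

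MARS2, the mitochondrial methionine enzyme, showed the same early change, followed by a fall. It had CPM values of 107 and 104 at 2 h, 82.1 and 78.5 at 5 h and 54.2 and 60.5 at 20 h with panobinostat, 66.5 and 67.1 at 2 h, 68.2 and 61.02 at 5 h and 36.7 and 34.3 at 20 h with romidepsin and 90.9 and 98.7 at 2 h, 73.2 and 78.95 at 5 h and 48.3 and 51.2 at 20 h with ricolinostat, against 64.03 and 66.6 with DMSO. The 20 h libraries lay below both DMSO libraries with all 3 inhibitors, so that the panobinostat and ricolinostat courses crossed the DMSO level. Between 20 h and 2 h, as 20 h minus 2 h, the log2 difference was -0.88 ± 0.061 (adjusted p = 4.39e-25) for panobinostat, -0.91 ± 0.066 (adjusted p = 1.02e-23) for romidepsin and -0.93 ± 0.063 (adjusted p = 9.84e-25) for ricolinostat. Against DMSO, the fall at 20 h of panobinostat (-0.18 ± 0.062, adjusted p = 0.00598) was 0.12 with an adjusted p of 0.0686 under library size alone.

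RARS2, the mitochondrial arginine enzyme, had CPM values of 54.4 and 57.1 at 2 h, 67.1 and 62.6 at 5 h and 54.1 and 52.6 at 20 h with panobinostat, 35.2 and 39.4 at 2 h, 35.3 and 35.9 at 5 h and 39.1 and 38.9 at 20 h with romidepsin and 53.2 and 54.05 at 2 h, 50.6 and 47.97 at 5 h and 35.01 and 33.3 at 20 h with ricolinostat, against 38.4 and 38.8 with DMSO. At 2 h the log2 fold change of RARS2 was 0.53 ± 0.069 (adjusted p = 1.22e-10) with panobinostat and 0.47 ± 0.069 (adjusted p = 9.18e-09) with ricolinostat. RARS1 and RARS2 thus both rose within 2 h of these inhibitors, whereas neither passed the test at 2 h of romidepsin.

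TARS2 and IARS2 rose late. TARS2, the mitochondrial threonine enzyme (ENSG00000143374, chromosome 1, 150487364 to 150507609, plus strand), had CPM values of 136 and 133 at 2 h, 149 and 141 at 5 h and 279 and 282 at 20 h with panobinostat, and 145 and 144 at 2 h, 147 and 140.3 at 5 h and 186 and 189 at 20 h with romidepsin. Ricolinostat gave TARS2 values of 130.5 and 132 at 2 h, 147 and 141 at 5 h and 147 and 149.9 at 20 h, against 135 and 135 with DMSO. The 20 h libraries of panobinostat stood above all others and those of romidepsin came next. At 20 h the log2 fold change of TARS2 was 1.05 ± 0.044 (adjusted p = 5.66e-41) with panobinostat, 0.47 ± 0.045 (adjusted p = 4.87e-17) with romidepsin and 0.14 ± 0.046 (adjusted p = 0.0136) with ricolinostat, and the ricolinostat call was lost when any of the 4 libraries compared was left out (adjusted p between 0.0725 and 0.199).

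IARS2, the mitochondrial isoleucine enzyme (chromosome 1, 220094102 to 220148041, plus strand), had CPM values of 143 and 152 at 2 h, 159 and 155 at 5 h and 235 and 235 at 20 h with panobinostat, and 145 and 141 at 2 h, 141 and 143 at 5 h and 233 and 223 at 20 h with romidepsin. Ricolinostat gave IARS2 values of 149 and 149 at 2 h, 155 and 152 at 5 h and 152 and 142 at 20 h, against 148 and 154 with DMSO. Its log2 fold change at 20 h was 0.64 ± 0.045 (adjusted p = 1.37e-24) with panobinostat, 0.59 ± 0.045 (adjusted p = 1.8e-22) with romidepsin and -0.04 ± 0.046 (adjusted p = 0.603) with ricolinostat. EPRS1, which lies nearby on the opposite strand (chromosome 1, 219968601 to 220046658, minus strand) with 47443 bases between the 2 annotated starts, went the other way. EPRS1 had CPM values of 635 and 686 at 2 h, 599.9 and 607 at 5 h and 318 and 338 at 20 h with panobinostat, and 603 and 613 at 2 h, 591 and 567 at 5 h and 329 and 323 at 20 h with romidepsin. Ricolinostat gave EPRS1 values of 677 and 681 at 2 h, 660.4 and 637 at 5 h and 456 and 444 at 20 h, against 632 and 666 with DMSO. At 20 h its log2 fold change was -0.98 ± 0.039 (adjusted p = 1.83e-43) with panobinostat and -0.99 ± 0.039 (adjusted p = 1.83e-43) with romidepsin.

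Cytosolic and mitochondrial enzymes of the same amino acid formed 17 pairs, with EPRS1 and FARS2 each recurring among them. Some pairs had both genes called in opposite directions. How often other pairs of genes did so was not counted. Over all genes tested, 40.8% were called higher and 32.3% lower at 20 h of panobinostat. With that many calls, opposite calls in some pairs cannot be read as a trait of these pairs. At 20 h of panobinostat 5 pairs had both genes called in opposite directions. The cytosolic gene fell and the mitochondrial gene rose in TARS1/TARS2, NARS1/NARS2, EPRS1/PARS2 and IARS1/IARS2, with changes in the log2 ratio of cytosolic to mitochondrial CPM of -2.65, -2.05, -1.95 and -1.82. SARS1/SARS2 went the other way, with a change of 1.74, since SARS1 had a log2 fold change of 0.24 ± 0.065 (adjusted p = 0.000676) and SARS2 of -1.47 ± 0.23 (adjusted p = 1.13e-08). The SARS1 call was lost without DMSO replicate 1, DMSO replicate 2 or panobinostat 20 h replicate 1 (adjusted p 0.0939, 0.0788 and 0.0867).

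Over all genes tested at 20 h, 38.6% were called higher and 29.9% lower with romidepsin, and 14.7% and 16.4% with ricolinostat. At 20 h of romidepsin 3 pairs had opposite calls, IARS1/IARS2, TARS1/TARS2 and EPRS1/PARS2, with changes of -2.15, -1.50 and -1.26. In the last of them PARS2 had a log2 fold change of 0.26 ± 0.12 (adjusted p = 0.0389), which was lost when any of the 4 libraries compared was left out (adjusted p between 0.0561 and 0.566). Ricolinostat at 20 h had TARS1/TARS2 alone, with a change of -0.51, and its TARS2 call was lost when any of the 4 libraries was left out (adjusted p between 0.0725 and 0.199), with DESeq2-type size factors and without the filter. Over the 17 pairs, the ratio was lower than with DMSO in every library for 8 pairs and higher for 8 at 20 h of panobinostat, for 10 and 6 with romidepsin and for 13 and 1 with ricolinostat. The lower summed ratio was therefore not shared by all pairs. With 2 libraries per group such separation can arise by chance, and its frequency among other pairs of genes was not counted.

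The remaining members of these pairs had the following values. IARS1, the cytosolic isoleucine enzyme, had CPM values of 483 and 523 at 2 h, 445 and 448 at 5 h and 242 and 252 at 20 h with panobinostat, and 513 and 536 at 2 h, 487 and 472 at 5 h and 190.5 and 191 at 20 h with romidepsin. Ricolinostat gave IARS1 values of 524 and 537 at 2 h, 496 and 497 at 5 h and 375 and 366 at 20 h, against 558 and 565 with DMSO. Its 20 h libraries were the lowest of each course, by a log2 fold change of -1.56 ± 0.040 (adjusted p = 6.58e-59) with romidepsin. SARS1, the cytosolic serine enzyme, had CPM values of 49.9 and 47.6 at 2 h, 41.7 and 45.3 at 5 h and 58.8 and 57.4 at 20 h with panobinostat, and 48.4 and 48.7 at 2 h, 50.4 and 49.3 at 5 h and 50.5 and 49.4 at 20 h with romidepsin. Ricolinostat gave SARS1 values of 55.5 and 54.5 at 2 h, 57.3 and 56.02 at 5 h and 42.5 and 39.9 at 20 h, against 49.1 and 49.4 with DMSO. The panobinostat libraries lay below DMSO at 5 h and above it at 20 h.

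**Figure D4:**
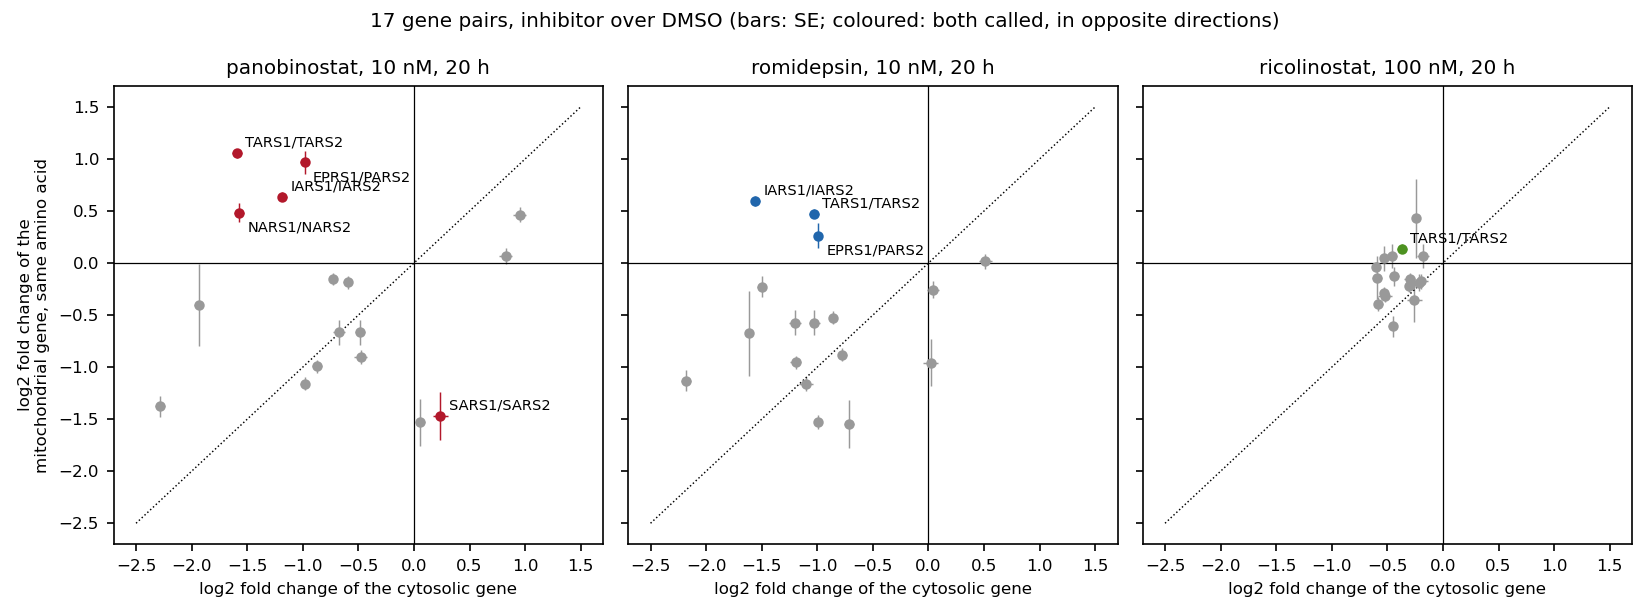
Each point is a pair of genes for the same amino acid at 20 h, with the log2 fold change over DMSO of the cytosolic gene on the horizontal axis and of the mitochondrial gene on the vertical axis, bars for SE and a dotted line where both change alike. Coloured points are pairs with both genes called in opposite directions, 5 for panobinostat, 3 for romidepsin and 1 for ricolinostat, and the last rests on a TARS2 call lost with any of the 4 libraries left out.

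Romidepsin and panobinostat were compared directly at the same dose of 10 nM, with p-values adjusted over all genes tested. At 2 h, 7 cytosolic genes were higher and 5 lower with romidepsin, and 5 mitochondrial genes were higher and 3 lower, against 17.3% of all genes higher and 19.8% lower. The 5 lower cytosolic genes became 3 without romidepsin 2 h replicate 1. At 5 h, 10 cytosolic genes were higher and 6 lower, and 7 mitochondrial genes were higher and 4 lower, against 24.8% and 25.9% of all genes. At 20 h, 3 cytosolic genes were higher and 13 lower, and 0 mitochondrial genes were higher and 9 lower, against 23.4% and 18.3% of all genes. At an unadjusted p under 0.05 edgeR had 2 mitochondrial genes higher there, and the DESeq2 test 0, and the count was 1 without panobinostat 20 h replicate 2, romidepsin 20 h replicate 1 or romidepsin 20 h replicate 2. At 5 h more of the called synthetase genes were higher with romidepsin than lower, and at 20 h more were lower.

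At 5 h the difference (romidepsin minus panobinostat, log2) was 1.48 ± 0.23 (adjusted p = 2.27e-08) for WARS2, 1.33 ± 0.11 (adjusted p = 1.93e-20) for YARS2 and 0.71 ± 0.043 (adjusted p = 7.23e-29) for TARS1. In the other direction it was -0.93 ± 0.11 (adjusted p = 6.07e-12) for PARS2, -0.86 ± 0.070 (adjusted p = 2.55e-20) for RARS2 and -0.63 ± 0.060 (adjusted p = 1.21e-16) for RARS1. At 20 h YARS1 (0.10 ± 0.048, adjusted p = 0.0792), NARS1 (0.07 ± 0.044, adjusted p = 0.187), EPRS1 (-0.01 ± 0.039, adjusted p = 0.882) and IARS2 (-0.04 ± 0.044, adjusted p = 0.486) did not pass the test of this difference, which does not show that the inhibitors act alike on them. HARS1 (-0.78 ± 0.055, adjusted p = 7.7e-24), WARS1 (-0.77 ± 0.045, adjusted p = 1.64e-29) and TARS2 (-0.58 ± 0.044, adjusted p = 3.63e-22) were lower with romidepsin. Ricolinostat was given at another dose, so its values are set beside these without a test of the difference.

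3 genes were called in opposite directions by the pair of inhibitors at the same time. WARS1, the tryptophan enzyme and an interferon-induced gene, had CPM values of 182 and 177 at 2 h, 169.8 and 173 at 5 h and 114 and 113 at 20 h with romidepsin, and 214 and 207 at 2 h, 207 and 199.9 at 5 h and 187 and 199 at 20 h with panobinostat. Ricolinostat gave WARS1 values of 214 and 215 at 2 h, 223 and 229 at 5 h and 124 and 122 at 20 h, against 185 and 186 with DMSO. At 5 h both romidepsin libraries lay below and both panobinostat libraries above DMSO, with a difference of -0.25 ± 0.044 (adjusted p = 8.36e-07). Each of the 2 calls against DMSO was small and was lost with some libraries left out, with adjusted p up to 0.28 for panobinostat (without panobinostat 5 h replicate 1) and 0.144 for romidepsin (without romidepsin 5 h replicate 1), and the romidepsin value was 0.01 under library size alone.

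TARS3, a second cytosolic threonine enzyme, had CPM values of 16.3 and 17.02 at 2 h, 16.2 and 14.4 at 5 h and 18.4 and 15.3 at 20 h with romidepsin, and 19.2 and 19.7 at 2 h, 23.9 and 24.3 at 5 h and 16.5 and 16.2 at 20 h with panobinostat. Ricolinostat gave TARS3 values of 18.4 and 18.5 at 2 h, 16.9 and 20.03 at 5 h and 15.4 and 15.9 at 20 h, against 19.7 and 17.9 with DMSO. At 5 h the difference was -0.66 ± 0.11 (adjusted p = 1.3e-07), with the romidepsin libraries below and the panobinostat libraries above DMSO. The calls against DMSO were lost without DMSO replicate 1 (romidepsin, adjusted p = 0.214), romidepsin 5 h replicate 2 (0.236) or DMSO replicate 2 (panobinostat, 0.0967).

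NARS2, the mitochondrial asparagine enzyme, had CPM values of 19.9 and 19.3 at 2 h, 20 and 17.02 at 5 h and 18.02 and 19.3 at 20 h with romidepsin, and 20.9 and 19.6 at 2 h, 18.4 and 17.3 at 5 h and 28.2 and 32.8 at 20 h with panobinostat. Ricolinostat gave NARS2 values of 19.7 and 20.04 at 2 h, 19.8 and 20.9 at 5 h and 14.5 and 14.2 at 20 h, against 21.4 and 22.3 with DMSO. At 20 h the difference between romidepsin and panobinostat was -0.71 ± 0.096 (adjusted p = 4.37e-10). The romidepsin call against DMSO (-0.23 ± 0.10, adjusted p = 0.0389) was lost without DMSO replicate 2 or romidepsin 20 h replicate 1 (adjusted p = 0.0886 and 0.0698), and was 0.01 under library size alone.

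**Figure D5:**
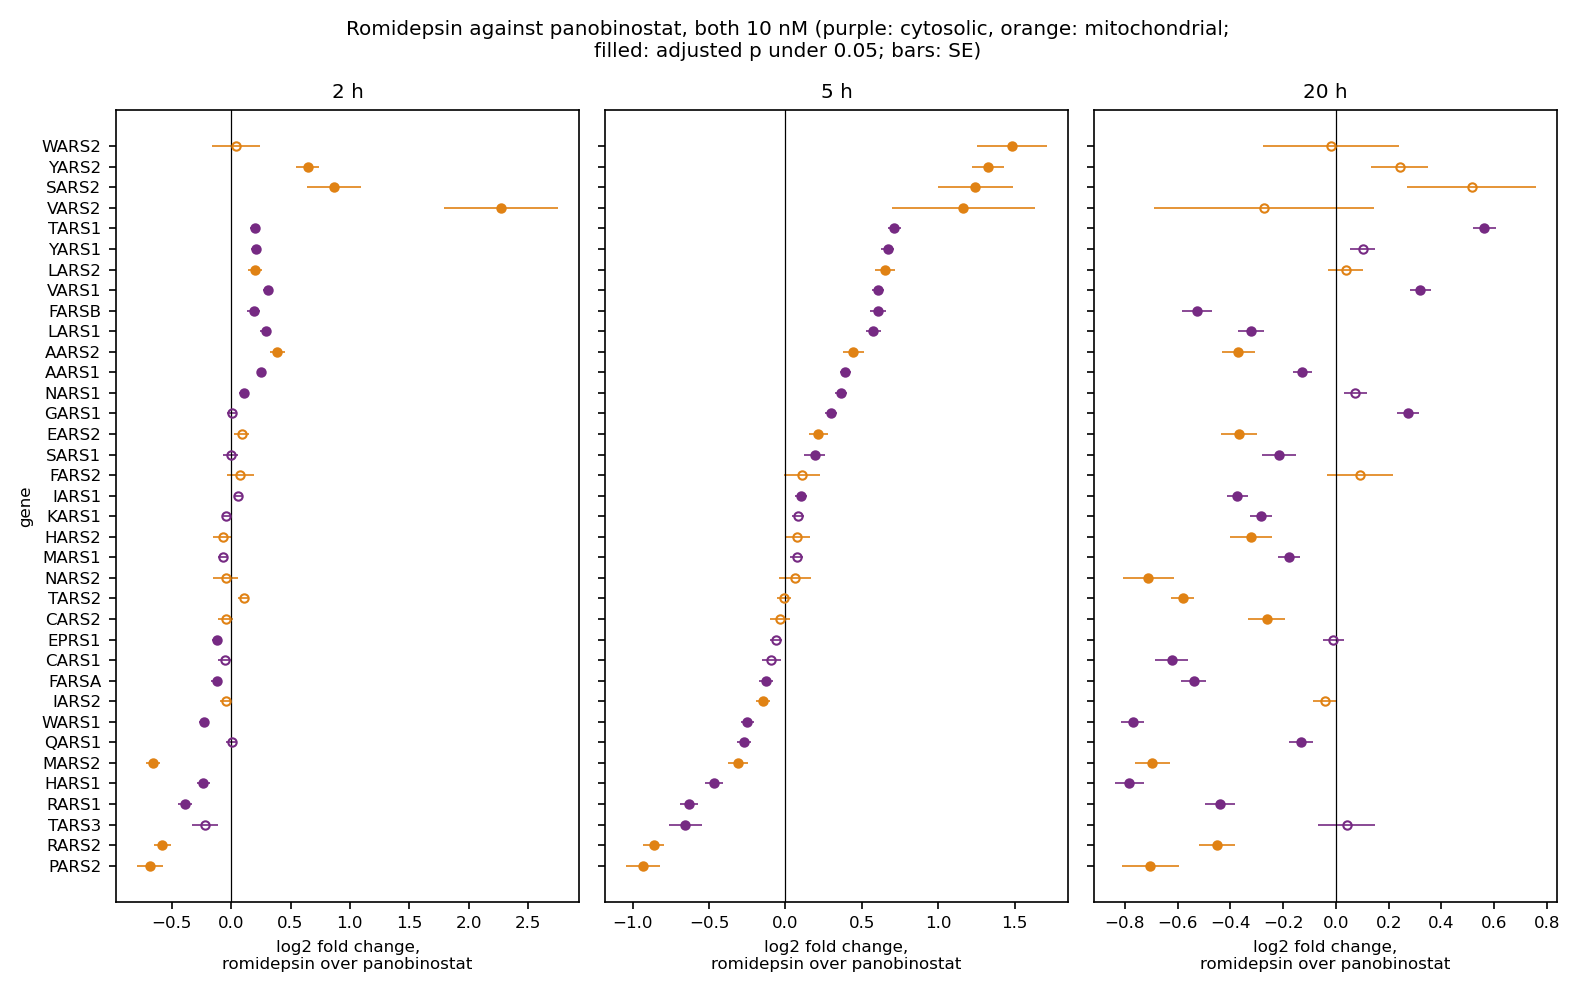
Log2 fold change of romidepsin over panobinostat for the 36 genes at 2, 5 and 20 h, with bars for SE, purple for cytosolic and orange for mitochondrial genes and filled points for an adjusted p under 0.05. The horizontal scales differ between panels. At 5 h WARS2, YARS2 and SARS2 lie farthest to the right and PARS2, RARS2 and TARS3 farthest to the left, and at 20 h the called mitochondrial genes all lie to the left of 0.

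Within each inhibitor, 20 h was also set against 2 h, which does not use the DMSO libraries. With panobinostat, 4 cytosolic genes were higher and 16 lower at 20 h, and 5 mitochondrial genes were higher and 8 lower, against 35.9% of all genes higher and 31.9% lower. With romidepsin it was 1 higher and 15 lower, and 2 higher and 10 lower, against 36.7% and 30.2%. With ricolinostat it was 0 higher and 14 lower, and 1 higher and 6 lower, against 21.1% and 22.2%, and the 0 held at an unadjusted p under 0.05 and by the DESeq2 test. Scaling by library size alone gave 13 higher and 19 lower for the 36 genes with panobinostat, 7 and 24 with romidepsin and 4 and 19 with ricolinostat. YARS1 at 20 h minus 2 h was -1.99 ± 0.045 (adjusted p = 9.06e-64) with panobinostat, -2.09 ± 0.045 (adjusted p = 1.71e-65) with romidepsin and -0.32 ± 0.042 (adjusted p = 1.31e-10) with ricolinostat.

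Genes whose products work around the synthetases were counted in lists made by function. These counts stand beside the shares of all genes called at 20 h, which were 40.8% higher and 32.3% lower with panobinostat, 38.6% and 29.9% with romidepsin and 14.7% and 16.4% with ricolinostat. The scaffolds AIMP1, AIMP2 and EEF1E1 were lower at 20 h with each inhibitor, 3 of 3 each, with medians of -0.76, -1.13 and -0.51 for panobinostat, romidepsin and ricolinostat. Of 6 genes for tRNA export, trans-editing and selenocysteine steps, 4 fell and 1 rose with panobinostat, 5 fell and 1 rose with romidepsin and 2 fell with ricolinostat. XPOT, the exporter of tRNA from the nucleus, had 96.97 and 97.7 CPM at 20 h of panobinostat, 137 and 136 with romidepsin and 295 and 294 with ricolinostat, against 428 and 422 with DMSO. XPOT had log2 fold changes of -2.12 ± 0.043 (adjusted p = 3.56e-68), -1.63 ± 0.043 (adjusted p = 1.63e-58) and -0.53 ± 0.041 (adjusted p = 1.57e-20) in the same order.

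RNA polymerase III, with its factors, transcribes tRNA genes. Of its 22 genes, 14 fell and 5 rose with panobinostat at 20 h, 18 fell and 3 rose with romidepsin and 13 fell with ricolinostat, against 32.3%, 29.9% and 16.4% of all genes lower. GTF3C6, a subunit of TFIIIC, had 2.46 and 3.10 CPM at 20 h of panobinostat and 4.60 and 4.38 with romidepsin, against 41.2 and 40.4 with DMSO. Its log2 fold change was -3.85 ± 0.12 (adjusted p = 1.32e-48) with panobinostat and -3.18 ± 0.12 (adjusted p = 1.21e-43) with romidepsin.

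In mitochondria, QRSL1, a subunit of the amidotransferase that makes glutaminyl-tRNA, had log2 fold changes of -1.57 ± 0.10 (adjusted p = 2.8e-27) with panobinostat and -1.60 ± 0.10 (adjusted p = 4.31e-27) with romidepsin at 20 h. Of the 4 partners of mitochondrial aminoacylation, 2 fell and 1 rose with panobinostat, 2 fell with romidepsin and 3 fell and 1 rose with ricolinostat. Of the 9 mitochondrial translation factors, 2 were higher and 3 lower with panobinostat, 3 and 3 with romidepsin and 3 lower with ricolinostat, and over all genes 32.3%, 29.9% and 16.4% were lower. Of 5 cytosolic elongation factors tested, 2 rose and 2 fell with panobinostat and 2 rose and 3 fell with romidepsin. EEF1A2, a tissue-restricted form of the factor that brings aminoacyl-tRNA to the ribosome, had 14.3 and 14.2 CPM at 20 h of panobinostat and 17.6 and 20.2 with romidepsin, against 1.95 and 3.13 with DMSO.

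ATF4 itself had 264 and 268 CPM at 20 h of panobinostat, 296 and 291 with romidepsin and 447 and 467 with ricolinostat, against 589.8 and 587 with DMSO. ATF4 had log2 fold changes of -1.15 ± 0.039 (adjusted p = 6.82e-49) with panobinostat, -1.002 ± 0.039 (adjusted p = 8.22e-44) with romidepsin and -0.37 ± 0.038 (adjusted p = 5.82e-14) with ricolinostat. These are transcript levels, and ATF4 is controlled in large part through its translation. Among 19 tested ATF4 targets that are not synthetases, 11 fell and 5 rose with panobinostat, 11 fell and 4 rose with romidepsin and 13 fell with ricolinostat at 20 h, against 32.3%, 29.9% and 16.4% of all genes lower. The amino acid transporters SLC7A5 and SLC7A11 had log2 fold changes of -2.19 and -2.96 with panobinostat and -3.54 and -2.27 with romidepsin, all called. The stress-response genes SESN2 and PPP1R15A, picked after their values were seen, were higher at 20 h of panobinostat and romidepsin. SESN2 had 96.03 and 96.15 CPM with panobinostat, 98.4 and 101 with romidepsin and 35.3 and 33.8 with ricolinostat, against 38.4 and 42.1 with DMSO. PPP1R15A had 307 and 312 CPM with panobinostat, 341.5 and 350 with romidepsin and 83.25 and 87.9 with ricolinostat, against 67.25 and 68.8 with DMSO.

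DDIT3, a stress-induced partner of ATF4, also rose at 20 h of panobinostat and romidepsin. It had 53.9 and 52.1 CPM at 20 h of panobinostat, 43.2 and 38.2 with romidepsin and 5.14 and 5.03 with ricolinostat, against 6.39 and 6.67 with DMSO. Its log2 fold change was 3.02 ± 0.11 (adjusted p = 4.33e-45) with panobinostat and 2.64 ± 0.12 (adjusted p = 1.38e-39) with romidepsin, and -0.36 ± 0.15 (adjusted p = 0.054) with ricolinostat. DDIT3 overlaps exons of MARS1, the cytosolic methionine enzyme, on the opposite strand. The libraries mark strand but the counting setting is not given in the sources used here, so the values of these 2 genes are less certain.

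MYC, a transcription factor that raises many genes of protein synthesis, had CPM values of 61.6 and 57.7 at 2 h, 37.4 and 35.3 at 5 h and 8.80 and 10.2 at 20 h with panobinostat, and 236 and 232 at 2 h, 160.5 and 159 at 5 h and 24.6 and 23.5 at 20 h with romidepsin. Ricolinostat gave MYC values of 216 and 204 at 2 h, 344 and 335 at 5 h and 386 and 378 at 20 h, against 448 and 432 with DMSO. At 2 h the log2 fold change of MYC was -2.88 ± 0.049 (adjusted p = 1.12e-73) with panobinostat, -0.91 ± 0.044 (adjusted p = 7.66e-34) with romidepsin and -1.07 ± 0.044 (adjusted p = 7.24e-40) with ricolinostat. Its part in the synthetase changes was not tested. The interferon gamma list, which bears on WARS1, had 5 genes higher and 2 lower of 10 tested with panobinostat at 20 h, 8 and 1 with romidepsin and 2 and 3 with ricolinostat, against 40.8%, 38.6% and 14.7% of all genes higher and 32.3%, 29.9% and 16.4% lower. WARS1 itself fell at 20 h of romidepsin (-0.71 ± 0.045, adjusted p = 1.19e-27) and ricolinostat (-0.59 ± 0.045, adjusted p = 6.89e-21).

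Promoter sequence was examined because many members moved together. RefSeq windows of 300 bases (250 before and 50 after the start site, GRCh38.p14) were found for 30 of the 36 genes, 16 cytosolic and 14 mitochondrial, in 39 windows. The windows were searched on both strands for TGATGNA (the core of the ATF4 and C/EBP element), CACGTG (E-box), GCATGCG (NRF1) and CCGGAAG (ETS factors). TGATGNA was found for 8 of the 16 cytosolic genes, AARS1, CARS1, FARSA, GARS1, IARS1, MARS1, NARS1 and TARS1, and for 2 of the 14 mitochondrial genes, NARS2 and YARS2. That is 25.6% of member windows, against 9.99% of all 35116 windows. With only the bases before the start site it was 4 cytosolic and 2 mitochondrial genes, 15.4% of member windows against 8.41% of all. The matches that lie before the start site are all shown, since the genes that hold them did not move alike. GARS1, IARS1, AARS1 and FARSA fell at 20 h with each inhibitor and YARS2 with panobinostat and romidepsin, whereas NARS2, with a pair of matches, rose with panobinostat and fell with romidepsin and ricolinostat. Capitals mark the match, each sequence runs 5′ to 3′ on the strand of its gene, and TNCATCA is the same motif on the other strand.
GARS1 (chr7:30594835-30594863, plus strand): tacgcggcgatTTCATCAtgctccgagcc
IARS1 (chr9:92293698-92293720, minus strand): tttcagcgcgtTGCATCAcctcc
AARS1 (chr16:70289675-70289703, minus strand): tttctcgcagtTGCATCAgccaagttaga
FARSA (chr19:12933881-12933909, minus strand): ccagacgccatTGATGGAgccagggtgga
YARS2 (chr12:32756077-32756105, minus strand): atccacactgcTGATGGAaaaattaagtt
NARS2, first match (chr11:78575076-78575104, minus strand): ctattgttgacTGATGGAgacggtttccc
NARS2, next match (chr11:78575056-78575084, minus strand): cggtttccctcTCCATCAgtcactccttg

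CCGGAAG was found for 9 cytosolic and 7 mitochondrial genes, in 48.7% of member windows against 10.3% of all. The other 2 motifs were rarer, CACGTG in 12.8% of member windows against 7.26% of all, and GCATGCG in 7.69% (MARS2, NARS2 and YARS2) against 3.91%. HARS1 and HARS2 lie head to head on chromosome 5 with 84 bases between their RefSeq start sites, and a CCGGAAG match lies near each end of that stretch. The 29 bases beside each start are shown on the plus strand because 1 of these neighbours passed the test at 20 h of panobinostat, HARS1 with a log2 fold change of 0.82, and HARS2 did not (0.07 ± 0.078, adjusted p = 0.441); the difference between them was not tested. In GENCODE 29, 658 exonic bases of HARS1 and 437 of HARS2 overlap genes on the opposite strand, each other among them, and 152 of HARS2 overlap ZMAT2 on the same strand, so with the strand setting of the counting not given both values are less certain. HARS2 had 39.5 and 38.2 CPM at 20 h of panobinostat, 32.5 and 29.8 with romidepsin and 34.1 and 30.9 with ricolinostat, against 35.8 and 38.3 with DMSO. A match describes these letters only and shows no binding.
HARS1 side (chr5:140691371-140691399, plus strand): gaCTTCCGGctatcgagtcgctgggtcgc
HARS2 side (chr5:140691426-140691454, plus strand): aaaaattatttccggctcctcCCGGAAGt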

How the data were processed

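Poly(A) RNA of 20 OPM2 libraries was sequenced as strand-specific paired reads of 100 bases, per the labels' protocols. The deposited values are whole-number counts per gene, which the authors made by aligning to GRCh38; the submitters' processing notes name HISAT2, SAMtools and featureCounts. Which versions, gene annotation and strandedness option they used, and if single reads or fragments were counted, is not given in the sources used here. Groups came from the sample titles. No count column was left out.

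Counts were fitted with edgeR 4.0.16 in R 4.3.3 (with limma 3.58.1): TMM scaling, genes kept by filterByExpr with a minimum count of 10 (20957 genes), 1 term per group over all 20 libraries, and the robust quasi-likelihood F test. Benjamini-Hochberg adjustment ran over all genes tested within each of 15 contrasts, with a threshold of 0.05. SE is the log2 fold change divided by the root of F. CPM are TMM-scaled, and CPM per kb uses the exon union of GENCODE 29. The biological coefficient of variation was 0.0419. Alternatives were DESeq2-type size factors, library size as the only scaling, no filter, the DESeq2 1.42.0 test, a replicate block, only the 2 groups compared, and each library left out. The script was tested on simulated data. Gene symbols were matched by Ensembl identifier, and promoter windows and their sequences are RefSeq's (GRCh38.p14).

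The members and lists were chosen with earlier results of these data known. Values of every library are given for the 5 cytosolic and 5 mitochondrial genes with the largest change at 20 h (called, with a mean of at least 5 CPM in 1 of the groups), for genes called in opposite directions by romidepsin and panobinostat at the same time, and for pairs called in opposite directions at 20 h. RARS1, HARS1, MARS2 and RARS2, and HARS2, SESN2 and PPP1R15A at 20 h, were given after their values were seen. Of each pathway list up to 4 genes with the largest called changes at 20 h could be named, and ATF4, DDIT3 and MYC always.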

Additional observations from a re-analysis of the deposited data

Results flagged for a closer look

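Some genes were called in opposite directions at 20 h and 2 h of the same inhibitor, and the difference between the times was itself past the threshold (edgeR, adjusted over all genes). With panobinostat, the log2 difference of 20 h minus 2 h was -0.63 for FARSA (adjusted p = 1.22e-23) and -0.88 for MARS2 (4.39e-25). The 2 h call of FARSA, with a log2 fold change of 0.14 against DMSO, was lost when any of the 4 libraries compared was left out. With ricolinostat, the difference was -0.63 for GARS1 (5.18e-27), -0.49 for HARS1 (3.18e-12), -0.45 for RARS1 (1.05e-09), -0.80 for WARS1 (4.08e-30) and -0.93 for MARS2 (9.84e-25). Against DMSO, the 2 h calls of GARS1, HARS1, RARS1 and WARS1 with ricolinostat were each lost without ricolinostat 2 h replicate 1, at adjusted p = 0.513, 0.129, 0.213 and 0.138 (edgeR). Without ricolinostat 2 h replicate 2 the calls of GARS1 (adjusted p = 1), RARS1 (0.0608) and WARS1 (0.113) were lost, without DMSO replicate 2 those of GARS1 (0.247) and RARS1 (0.0841), and without DMSO replicate 1 that of GARS1 (0.222). The 20 h call of HARS1 was lost without ricolinostat 20 h replicate 2 (adjusted p = 0.0839), and that of RARS1 without DMSO replicate 1 (0.131) or ricolinostat 20 h replicate 1 (0.0704). In each of these 7 cases every library at 20 h lay below every library at 2 h.

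Other genes were called in opposite directions by romidepsin and panobinostat at the same time, and the direct difference was past the threshold. At 5 h, romidepsin minus panobinostat was -0.66 for TARS3 (adjusted p = 1.3e-07) and -0.25 for WARS1 (8.36e-07), and at 20 h it was -0.71 for NARS2 (4.37e-10).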

How the results depend on the processing

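Leaving out 1 library at a time gave these ranges in the number of the 36 genes called. Against DMSO it was 19 to 20 for panobinostat at 2 h, 27 to 29 at 5 h and 30 to 31 at 20 h, 1 to 4 for romidepsin at 2 h, 15 to 18 at 5 h and 28 to 29 at 20 h, and 10 to 16 for ricolinostat at 2 h, 20 to 21 at 5 h and 21 to 24 at 20 h. Romidepsin minus panobinostat gave 17 to 19 at 2 h, 22 to 25 at 5 h and 21 to 25 at 20 h, and 20 h minus 2 h gave 30 to 32 for panobinostat, 27 to 28 for romidepsin and 20 to 22 for ricolinostat. Where a group is left with 1 library, it is assumed to vary like the others. The 4 calls of romidepsin at 2 h became 2 with library size as the only scaling, 1 without the filter, 8 with the DESeq2 test and 8 with only the 2 groups compared. The other 14 counts stayed within 1.5 times under the alternatives that keep all libraries. The genes with TGATGNA in the promoter window fell to 6, against 10, with only the bases before the start site.

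Library size as the only scaling turned 12 of 540 values: against DMSO EPRS1 at 5 h (0.024), AARS2 (0.15) and MARS2 (0.12) at 20 h of panobinostat, and GARS1 (0.006) and WARS1 (0.01) at 5 h and QARS1 (0.19) and NARS2 (0.01) at 20 h of romidepsin, and for 20 h minus 2 h TARS3 (0.052), WARS1 (0.18) and RARS2 (0.24) with panobinostat, HARS1 (0.15) with romidepsin and VARS1 (0.11) with ricolinostat. A value was counted as turned only where the main fit or the alternative called it. By that rule no value turned under the other alternatives run. Under library size alone 2 values were called in both fits, in opposite directions (edgeR). AARS2 at 20 h of panobinostat went from -0.155 (adjusted p = 0.0188) to 0.15 (0.0211). WARS1 at 20 h minus 2 h of panobinostat went from -0.124 (0.00909) to 0.179 (6.81e-05). Same-numbered libraries of the inhibitor groups did not deviate together with those of DMSO (correlations between -0.015 and 0.016). Pairing among the inhibitor groups themselves was not examined in this way. The replicate block changed 6 of 540 calls, with 28 genes called at 20 h of romidepsin and 28 of ricolinostat. Each group has 2 libraries, and VARS2, at 2.05 CPM or less, had an SE of 0.39 (log2) at 20 h of panobinostat, against 0.045 for YARS1.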
